A study of Homo sapiens with 4 samples.

Results

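Aminoacyl-tRNA synthetases are described here through the mRNA levels of 36 genes, 20 of them taken as cytosolic (gene names without a final 2) and 16 as mitochondrial (gene names ending in 2), among the 32955 genes of the table. The members were listed by name with their older symbols (AARS is now AARS1, for example), and all 36 were found. RNA-seq was performed on 4 libraries of MDA-MB-231, an established line of human breast cancer cells without the estrogen receptor. The control group, 2 libraries, received mimic NC, a negative control oligonucleotide, and the other 2 received miR-217 mimic, a synthetic RNA that acts as miR-217, both by transfection. No other genotype, agent, dose or time is given in the labels, and the 4 libraries share the line and the medium. Both groups carry the replicate numbers 1 and 2. What a number stands for is not stated, nor is it stated whether the replicates were separate cultures, so that p-values measure the spread between these 4 libraries only. The values are RPKM, in which the read count of a gene is scaled by its exon length and by the depth of the library. Comparisons between genes therefore depend on the annotated exon length. Those between libraries are relative to all reads counted on genes.

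Each synthetase joins 1 amino acid to the tRNAs that carry it, and the charged tRNA is then used by the ribosome. Human cells keep separate nuclear genes for most synthetases of the cytosol and of mitochondria, where the proteins encoded by mitochondrial DNA are made. GARS and KARS are exceptions, since each gene gives rise to both the cytosolic and the mitochondrial enzyme, while EPRS joins the glutamyl and prolyl enzymes in a single protein. Several cytosolic synthetase genes are known targets of ATF4, a transcription factor whose translation increases when amino acids are scarce or the endoplasmic reticulum is stressed.

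The reads counted on genes ranged from 32635814 to 57933183 per library, and they were lower in number 2 than in number 1 of both groups. The first principal component of 13871 genes whose mean RPKM reached 1 held 71.3% of the variance and separated number 1 from number 2 in both groups. Mitochondrially encoded transcripts took 3.56% and 3.58% of the reads in the libraries numbered 1, and 3.97% and 4.78% in those numbered 2. For the identity of the line, VIM was at 27.9 to 36.9 RPKM, CAV1 at 5.17 to 7.92, CD44 at 13.5 to 26 and AXL at 6.23 to 8.71. ESR1, the estrogen receptor, was at 0.029 to 0.076 RPKM and CDH1 at 0.169 to 0.433, whereas EPCAM, an epithelial marker, was at 3.90 to 7.41. No gene named PGR was among those given, so its level could not be read.

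The synthetases of the cytosol were the more abundant class, and their summed level differed more between the replicate numbers than between the transfected oligonucleotides. The 20 cytosolic genes summed to 894.9 and 925.1 RPKM in the libraries numbered 1 (mimic NC and miR-217 mimic), and to 1492 and 1419 RPKM in those numbered 2. Number 2 was thus 1.67-fold above number 1 with mimic NC and 1.53-fold above it with miR-217 mimic, whereas miR-217 mimic was at 1.03 and 0.951 times mimic NC within numbers 1 and 2. The 16 mitochondrial genes summed to 154.2 and 154.7 RPKM in number 1 and to 148.9 and 153.4 RPKM in number 2, ratios of 0.966 and 0.992. The cytosolic sum was accordingly 5.80 and 5.98 times the mitochondrial sum in number 1, and 10.0 and 9.25 times in number 2. In these bulk libraries more RNA of a gene per cell and more cells that express it cannot be told apart.

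**Figure D1:**
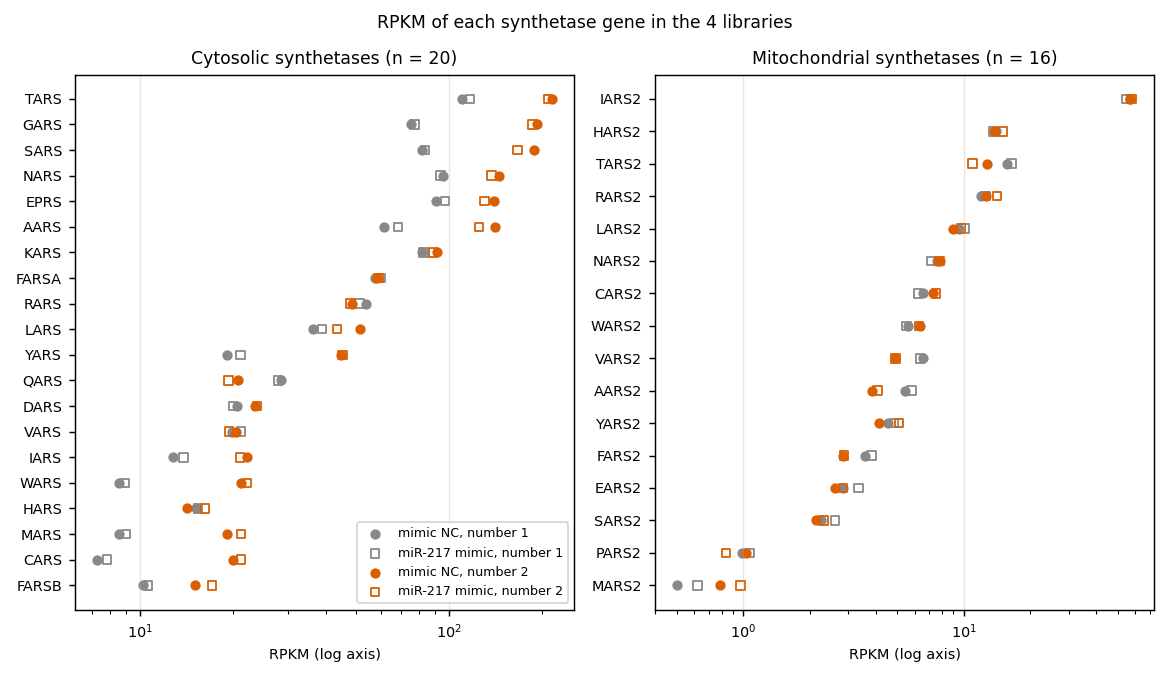
RPKM (log axis) of the 20 cytosolic and the 16 mitochondrial synthetase genes, with 1 point for each of the 4 libraries and genes ordered by their mean. For GARS, SARS, TARS, AARS, YARS, WARS, MARS and CARS the orange points (number 2) lie well to the right of the grey points (number 1) whichever oligonucleotide was transfected (circles, mimic NC, and squares, miR-217 mimic), while most mitochondrial genes show the colours close together.

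The libraries numbered 2 were set against those numbered 1 with limma on log2(RPKM + 1), with the transfected oligonucleotide as a term, over all 13871 genes whose mean RPKM reached 1. All 20 cytosolic and 14 of the 16 mitochondrial members were tested, and MARS2 and PARS2 fell below the minimum. At a Benjamini-Hochberg adjusted p under 0.05 from limma, 12 of the 20 cytosolic members were higher in number 2, or 60.0%, compared with 3.69% of all genes tested. One cytosolic member (QARS) was lower, compared with 4.69% of all genes tested, and 0 mitochondrial members were called in either direction by limma. Of the 14 mitochondrial members 4 had an unadjusted p under 0.05, near the 33.4% of all genes tested, and limma voom on the reads recovered from RPKM called 3 lower, compared with 13.5% of all genes. Without a test, both libraries numbered 2 lay above both libraries numbered 1 in 15 cytosolic members and below them in 2, whereas all genes tested gave 26.9% and 35.5%. The same counts were 5 and 4 among the 14 mitochondrial members. The median difference was 0.57 for the cytosolic members and -0.05 for the mitochondrial ones on the log2(RPKM + 1) scale, and it was -0.04 for all genes tested. Within mimic NC the cytosolic median was 0.604 and within miR-217 mimic it was 0.560. The adjusted p-values of the 13 called members were 0.0180 to 0.0440 in limma. The calls were lost in the 2 fits that left out a library numbered 1. The cytosolic median was then 0.568 (without mimic NC replicate 1) and 0.584 (without miR-217 mimic replicate 1). Those fits also had no treatment term, and only the 2 libraries numbered 2 gave their spread. The calls were also lost (adjusted p = 0.104 to 0.142 from limma) when every gene of the table was tested. That adds many genes with few reads and left the cytosolic median at 0.572.

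**Figure D2:**
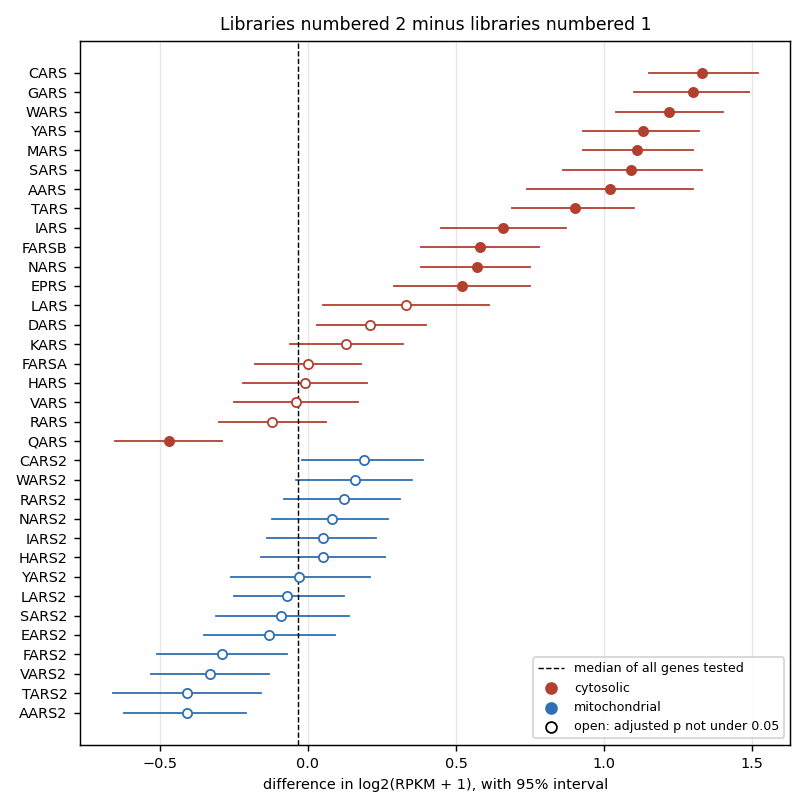
Difference between the libraries numbered 2 and those numbered 1 on the log2(RPKM + 1) scale (x axis) for the 34 synthetase genes tested, with 95% intervals from limma; filled points have an adjusted p under 0.05. The 12 called cytosolic genes spread from 0.52 (EPRS) to 1.33 (CARS), QARS stands alone at -0.47, and the mitochondrial genes lie between -0.41 and 0.19, around the dashed median of all genes.

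CARS, the cysteinyl-tRNA synthetase (chr11:3000922-3057613, minus strand, hg38), had the highest estimate of all members, though its 95% interval (1.15 to 1.52) overlapped that of GARS (1.10 to 1.49), which was slightly higher within mimic NC (1.34 compared with 1.33). It was at 7.27 RPKM (mimic NC) and 7.81 RPKM (miR-217 mimic) in number 1 and at 19.9 and 21.2 RPKM in number 2, with 4182 to 9440 reads per library. The log2 difference was 1.33 (SE 0.067, adjusted p = 0.0180 from limma). GARS, the glycyl-tRNA synthetase (chr7:30594681-30634033, plus strand), was at 75.5 and 77.3 RPKM in number 1 and at 192.0 and 186.1 RPKM in number 2, a log2 difference of 1.30 (SE 0.071). WARS, the tryptophanyl-tRNA synthetase (chr14:100333788-100376805, minus strand), was at 8.54 and 8.90 RPKM in number 1 and at 21.2 and 22.2 RPKM in number 2, a log2 difference of 1.22 (SE 0.067). For these 3 genes the libraries of the 2 numbers did not overlap, and the ratio of number 2 to number 1 was nearly equal in both transfections (2.73 and 2.72 for CARS, 2.54 and 2.41 for GARS, 2.48 and 2.49 for WARS). Among the 13871 genes tested they ranked 26, 28 and 39 from the highest difference. WARS shares 10.57% of its exon bases with genes on the opposite strand, and whether reads were counted by strand is not stated.

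Another 5 cytosolic members rose by about 1 on the log2 scale. YARS (tyrosine) was at 19.1 and 21.1 RPKM in number 1 and at 44.8 and 45.2 RPKM in number 2. MARS (methionine) was at 8.52 and 9.0 RPKM in number 1 and at 19.1 and 21.2 RPKM in number 2. Of the exon bases of MARS 12.44% are shared with genes on the other strand, DDIT3, which encodes the stress factor CHOP, and ARHGAP9. DDIT3 itself rose by 1.94 on the log2 scale, and its part in the MARS reads was not tested. SARS (serine) was at 81.5 and 83.6 RPKM in number 1 and at 188.6 and 166.5 RPKM in number 2. AARS (alanine) was at 61.7 and 68.3 RPKM in number 1 and at 141.0 and 125.0 RPKM in number 2. TARS (threonine), the most abundant of the 36 genes by mean RPKM, was at 110.3 and 116.6 RPKM in number 1 and at 214.7 and 209.2 RPKM in number 2. Their log2 differences were 1.13 (YARS), 1.11 (MARS), 1.09 (SARS), 1.02 (AARS) and 0.90 (TARS), with standard errors of 0.069 to 0.103.

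The other 4 cytosolic members called higher differed by less. IARS (isoleucine) went from 12.8 and 13.8 RPKM in number 1 to 22.1 and 21.0 RPKM in number 2, and NARS (asparagine) from 95.8 and 93.8 RPKM to 144.6 and 137.1 RPKM. EPRS (glutamate and proline) went from 90.8 and 97.0 RPKM to 139.9 and 129.9 RPKM. Their log2 differences were 0.66, 0.57 and 0.52. FARSB encodes the beta subunit of the phenylalanyl-tRNA synthetase, an enzyme built of alpha and beta subunits, and it went from 10.2 and 10.6 RPKM to 15.0 and 17.1 RPKM, a log2 difference of 0.58 (95% interval 0.38 to 0.78). FARSA, the alpha subunit of the same enzyme, was at 57.4, 58.3, 60.1 and 59.1 RPKM in mimic NC 1 and 2 and miR-217 mimic 1 and 2, and its 95% interval was -0.18 to 0.18. The ratio of FARSB to FARSA in RPKM was 0.178 and 0.176 in number 1 and 0.258 and 0.290 in number 2. This ratio differed by 0.62 on the log2 scale between the numbers, in the same direction in both transfections, and an exact permutation test gave a two-sided p = 0.333, the smallest that 2 libraries against 2 allow.

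QARS, the glutaminyl-tRNA synthetase (chr3:49095932-49105135, minus strand), was the only member called lower in this fit. It was at 28.5 and 27.9 RPKM in number 1 and at 20.8 and 19.3 RPKM in number 2, with no overlap, a log2 difference of -0.47 (SE 0.068, adjusted p = 0.0385 from limma). RARS (arginine) was at 53.6 and 51.3 RPKM in number 1 and at 48.5 and 47.9 RPKM in number 2, which do not overlap either, but its log2 difference of -0.12 did not pass the test (adjusted p = 0.279 from limma). KARS, the lysyl-tRNA synthetase, was at 81.4 and 82.7 RPKM in number 1 and at 91.4 and 88.5 RPKM in number 2, a log2 difference of 0.13 (95% interval -0.06 to 0.32). KARS and GARS, the 2 members whose single gene serves both compartments, thus lay far apart, and their intervals did not meet. LARS (leucine) and DARS (aspartate) had log2 differences of 0.33 and 0.21 with adjusted p-values of 0.117 and 0.116 from limma, and LARS passed the threshold with limma voom. HARS (histidine) and VARS (valine) were at -0.01 and -0.04, with intervals of -0.22 to 0.20 and -0.25 to 0.17, and 18.3% of the exon bases of HARS lie opposite other genes, HARS2 among them.

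Among the 14 mitochondrial members tested the largest values were those of CARS2 (cysteine), WARS2 (tryptophan) and RARS2 (arginine), with log2 differences of 0.19, 0.16 and 0.12 and adjusted p-values of 0.173, 0.214 and 0.320 from limma. CARS2 was at 6.52 and 6.21 RPKM in number 1 and at 7.26 and 7.50 RPKM in number 2. WARS2 was at 5.57 and 5.52 RPKM in number 1 and at 6.34 and 6.26 RPKM in number 2. RARS2 was at 12.0 and 12.6 RPKM in number 1 and at 12.7 and 14.2 RPKM in number 2. The libraries of the numbers were separate for these 3 genes, by small margins. AARS2 (alanine, chr6:44299654-44313326, minus strand) and TARS2 (threonine, chr1:150487364-150507609, plus strand) had the lowest differences, both -0.41. AARS2 was at 5.42 and 5.80 RPKM in number 1 and at 3.85 and 4.07 RPKM in number 2, with 571 to 1350 reads (SE 0.075, adjusted p = 0.0504 from limma). TARS2 was at 15.7 and 16.5 RPKM in number 1 and at 12.8 and 11 RPKM in number 2 (SE 0.093, adjusted p = 0.0684 from limma). VARS2 (valine) and FARS2 (phenylalanine) were at -0.33 and -0.29, with adjusted p-values of 0.0656 and 0.0929. For all 4 genes both libraries numbered 2 lay below both numbered 1, and AARS2, TARS2 and VARS2 passed the threshold with limma voom.

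The other mitochondrial members tested, EARS2, SARS2, LARS2, YARS2, HARS2, IARS2 and NARS2, had log2 differences of -0.13 to 0.08. IARS2 (isoleucine) was the most abundant of the class, at 54.5 to 57.9 RPKM, and it was the 1 mitochondrial gene with more RPKM than its cytosolic counterpart for the same amino acid. SARS2 shares 46.18% of its exon bases with a gene on the same strand and VARS2 shares 21.99% with GTF2H4, and so their counts are uncertain. MARS2 was at 0.503 and 0.621 RPKM in number 1 and at 0.783 and 0.974 RPKM in number 2, with 88 to 112 reads per library, and its log2 differences of 0.25 and 0.28 within the transfections exceed those of CARS2 (0.14 and 0.24). PARS2 was at 0.993 and 1.07 RPKM in number 1 and at 1.03 and 0.836 RPKM in number 2, with 64 to 135 reads.

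Cytosolic and mitochondrial genes for the same amino acid were set side by side in 15 pairs in which both genes were tested. The cytosolic gene had the higher signed difference between the numbers in 13 of the 15 pairs, and in the same 13 within each transfection. The gap was 1.43 for AARS and AARS2, 1.30 for TARS and TARS2, 1.18 for SARS and SARS2, 1.15 for YARS and YARS2, 1.15 for CARS and CARS2 and 1.07 for WARS and WARS2, on the log2 scale. The exceptions were histidine (HARS and HARS2, -0.06) and arginine (RARS and RARS2, -0.24). Regardless of sign, the cytosolic gene differed more in 12 pairs, and the mitochondrial gene differed more beside FARSA, VARS and HARS. FARS2 and both FARSA and FARSB enter these pairs, so that they are not independent of each other.

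**Figure D3:**
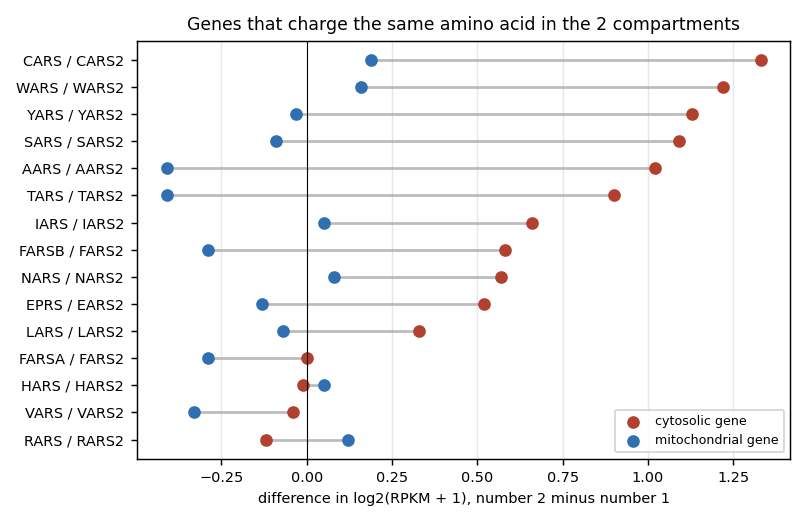
Difference between numbers 2 and 1 on the log2(RPKM + 1) scale (x axis) for 15 pairs of a cytosolic gene (red) and the mitochondrial gene (blue) that charges the same amino acid. The red point lies to the right of the blue point in 13 of the 15 pairs, and the widest gap is that of AARS and AARS2 at 1.43.

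The cytosolic members also fall into structural groups. EPRS, IARS, LARS, QARS, MARS, KARS, RARS and DARS form the multi-tRNA synthetase complex, in which several synthetases are held together by scaffold proteins. Over all genes tested 3.69% were called higher and 4.69% lower. Of these 8 genes, 3 were called higher (EPRS, IARS and MARS) and 1 lower (QARS), with a median log2 difference of 0.27. Of the 12 cytosolic genes outside the complex 9 were called higher and 0 lower, with a median of 0.96. The 3 that were not called were FARSA, HARS and VARS. Synthetases belong to either of 2 unrelated catalytic folds, named class I and class II. Of the cytosolic class I genes 5 of 9 were called higher (median 0.66), and of the class II genes 6 of 10 were (median 0.57), EPRS holding both. The groups were described by counts, and the difference between them was not tested.

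The promoters of all members that could be matched were searched for the C/EBP-ATF response element, TGATGNAA, the sequence that ATF4 binds with a C/EBP partner. Both strands were read from 250 bases before to 50 bases after 1 annotated start of each gene in RefSeq (GRCh38.p14). Any other starts of a gene were not read. A promoter was found for 30 members. DARS, LARS, VARS, YARS, AARS2 and VARS2 were not matched. The element was present in 6 of the 11 promoters of cytosolic members called higher (54.55%), in 0 of 5 of the other cytosolic members and in 1 of 14 of the mitochondrial ones (YARS2, TGATGGAA). It was present in 3.67% of all 27305 promoters and in 1.49% of the 8350 promoters of tested genes matched by symbol. Of these 8350, 294 were called higher in number 2, and 2.72% of the 294 held it. Another 349 were called lower, and a similar share of them, 2.58%, held it. This match used no synonyms and left out renamed genes, the 6 cytosolic members with the element among them. The 294 are therefore only part of the 512 genes called higher. In all 6 cytosolic promoters the letters were TGATGCAA or, read on the other strand, TTGCATCA. The 6 stretches are shown because they belong to members that rose between the numbers by 0.57 to 1.33. They are written 5′ to 3′ on the strand of the gene with the element in capitals. The positions are those of its first base from the annotated start, and regions are those of the printed stretch.
CARS (position -2, chr11:3057398-3057445, minus strand): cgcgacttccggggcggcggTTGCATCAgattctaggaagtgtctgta
MARS (position -4, chr12:57488044-57488091, plus strand): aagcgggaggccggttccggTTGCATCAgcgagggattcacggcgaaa
AARS (position -187, chr16:70289666-70289713, minus strand): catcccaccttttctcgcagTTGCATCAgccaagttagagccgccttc
TARS (position 3, chr5:33440947-33440994, plus strand): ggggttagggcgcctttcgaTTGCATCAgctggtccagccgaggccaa
IARS (position -13, chr9:92293683-92293730, minus strand): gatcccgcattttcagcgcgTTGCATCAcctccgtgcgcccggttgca
NARS (position 15, chr18:57621795-57621842, minus strand): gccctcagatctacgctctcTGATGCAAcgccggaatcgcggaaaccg

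The element lies within 15 bases of the annotated start in CARS, MARS, TARS, IARS and NARS and farther upstream in AARS. GARS, WARS, SARS, EPRS and FARSB were called higher without these letters in the window read. A match to the letters is a description and does not show that a factor was bound.

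Genes that work beside the synthetases were taken from a list of 18, of which 16 were tested. XPOT, the exporter of tRNA from the nucleus, was the only one called, and it was higher in number 2 (22.1 and 22.5 RPKM in number 1, 45.6 and 44.1 RPKM in number 2, log2 difference 0.98, adjusted p = 0.0209 from limma). In the reported fit this count of 1 is near the 3.69% of all genes called higher, but it depended on the setting. It was 0 without a filter and 3 of 13 with a minimum mean RPKM of 5 (9.28% of all genes). With median centring it was 3 of 16 (5.62% of all genes) and with limma voom 4 of 16 (10.1%). AARSD1, which removes serine from wrongly charged tRNA for alanine, was next at 0.38 (adjusted p = 0.0536 from limma). The median of the list was 0.05. The lowest values were -0.19 for PTRH2, a peptidyl-tRNA hydrolase, and -0.15 for GATB, a subunit of the mitochondrial glutamyl-tRNA amidotransferase. The scaffold genes of the synthetase complex, AIMP1, AIMP2 and EEF1E1, were at 0.23, 0.24 and 0.11, with 0 called. Among 78 mitochondrial ribosomal protein genes 2 were called higher and 1 lower, with a median of -0.05, near or below the 3.69% and 4.69% of all genes tested.

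ATF4 and genes known to respond to it were taken as a further list. Of its 12 genes 10 were called higher in number 2 and 0 lower, with a median log2 difference of 1.46, compared with 3.69% and 4.69% of all genes tested. Without a filter 0 were called, 2 were called without mimic NC replicate 1 and 5 without miR-217 mimic replicate 1, while the medians were 1.46, 1.42 and 1.49. ATF4 was at 54.4 and 57.4 RPKM in number 1 and at 123.1 and 121.3 RPKM in number 2, a log2 difference of 1.11. ASNS, the asparagine synthetase of amino acid metabolism, was at 2.56 and 3.35 RPKM in number 1 and at 15.5 and 17.1 RPKM in number 2, a log2 difference of 2.13, which exceeds that of every synthetase tested. ATF5 (-0.20) and SLC7A5 (0.26) did not pass the test. This list was chosen with earlier results of these data known, and its part in the levels of the synthetases was not tested. The protein level of ATF4 is not measured by RNA-seq.

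The study asked which mRNAs respond to miR-217, and miR-217 mimic was therefore compared with mimic NC over the same genes with limma, without a replicate term. Of the 34 members tested 0 had an adjusted p under 0.05, as had 0% of all genes, and 0 had an unadjusted p under 0.05, compared with 1.19% of all genes. Limma voom gave 0 members for both. The libraries of the 2 groups did not overlap in 6 of the 34 members, or 17.6%, compared with 23.2% of all genes tested. All 6 (FARSA, HARS, EARS2, LARS2, SARS2 and YARS2) were higher with miR-217 mimic, by 0.04 to 0.16 on the log2 scale. Of all 13871 genes tested, 1348 were higher without overlap and 1873 were lower. The direction among the members was not tested. The median difference was 0.00 for the cytosolic members, with a range of -0.08 (LARS) to 0.11 (FARSB and MARS), and 0.05 for the mitochondrial members, with a range of -0.07 (TARS2) to 0.16 (YARS2). Within number 1 the cytosolic median was 0.059 and within number 2 it was -0.041. For CARS, whose level differs most between the numbers, the difference was 0.09 with a 95% interval of -1.53 to 1.71, and within each number it was also 0.09. For KARS the difference was -0.01 with a narrower interval of -0.36 to 0.34. Intervals of this width do not show that the groups were alike.

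**Figure D4:**
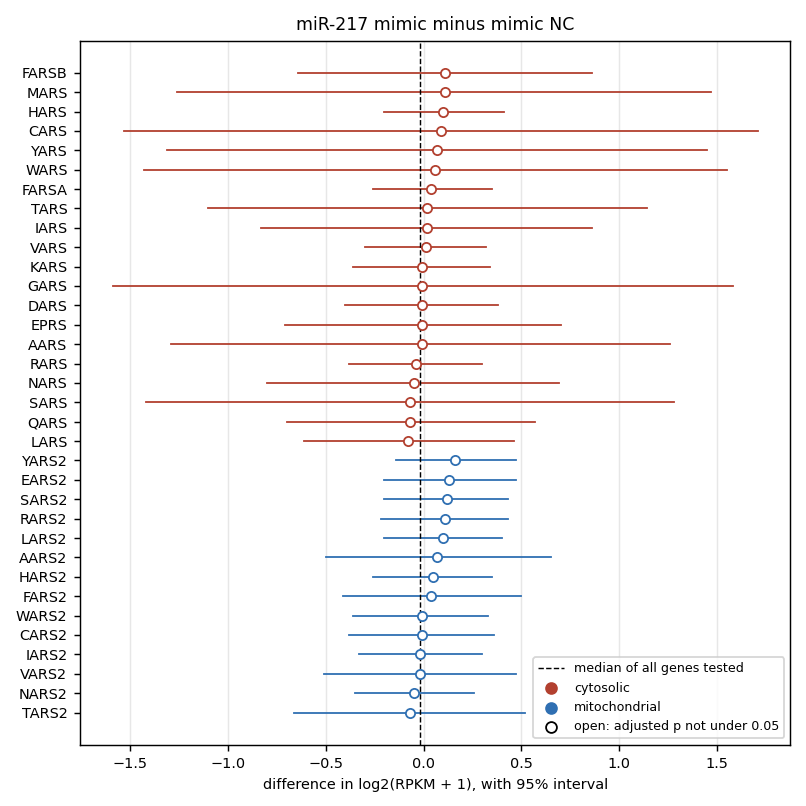
Difference between miR-217 mimic and mimic NC on the log2(RPKM + 1) scale (x axis) for the 34 synthetase genes tested, with 95% intervals from limma without a replicate term. The points lie between -0.08 and 0.16, and the widest intervals belong to the cytosolic genes that differ most between the replicate numbers, such as CARS (-1.53 to 1.71).

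The mature miR-217-5p is shown with its seed (bases 2 to 8) in capitals, followed by the 2 places at which the members hold the DNA letters that pair with it, ATGCAGT, in their longest 3′UTR annotated in GENCODE 29 (GRCh38). All 36 members had an annotated 3′UTR, and 2 of them (5.6%) held the match, compared with 14.5% of 9913 tested genes. Both are cytosolic, and 0 of the 16 mitochondrial members held it. The match in FARSB is at bases 693 to 699 of the 3′UTR, in exon 17, and an A follows it. The match in IARS is at bases 682 to 688, in exon 35, and a C follows it.
hsa-miR-217-5p: uACUGCAUcaggaacugauugga
FARSB (match at chr2:222571172-222571178, minus strand): tattgatatcaATGCAGTatgaacattag
IARS (match at chr9:92210591-92210597, minus strand): cttagacacctATGCAGTcatgttgggag

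FARSB was at 10.2 and 15.0 RPKM with mimic NC and at 10.6 and 17.1 RPKM with miR-217 mimic (numbers 1 and 2), a log2 difference of 0.11 (95% interval -0.64 to 0.86). IARS was at 12.8 and 22.1 RPKM with mimic NC and at 13.8 and 21.0 RPKM with miR-217 mimic, a log2 difference of 0.02 (95% interval -0.83 to 0.86). Neither gene was lower with the mimic in both numbers, and for FARSB the mimic library was the higher one in both.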

How the data were processed

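RNA was isolated with TRIzol and sequenced from stranded mRNA libraries. The authors deposited one table of RPKM for 32955 genes, with exon coordinates and gene length. The submitters' processing notes name hg38, Trimmomatic 0.36, featureCounts, Subread 1.5.1 and edgeR 3.12.1. The aligner, the annotation and the use of strand are not given in the sources used here. Columns were matched to samples by name, and 0 columns were left unused.

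RPKM multiplied by length gave whole reads (within 0.01) for 100% of nonzero values, and depth was summed from these. Log2(RPKM + 1) was tested with limma 3.58.1 (R 4.3.3, lmFit and eBayes with trend, two-sided, Benjamini-Hochberg adjustment) for 13871 genes whose mean RPKM reached 1. Differences on this scale are smaller than the true change where a gene is low. The number comparison had the treatment as a term (1 residual degree of freedom), and the mimic comparison had no replicate term. Because eBayes draws the spread of a gene partly from other genes of similar level, a standard error is not that gene's own spread alone. The treatment term was dropped in fits that left out a library. Both models were tested on simulated counts. The fits were repeated with median centring, with 0.1 as pseudocount, without a filter, with a minimum mean RPKM of 5, with limma voom on recovered reads, without the treatment term or with the replicate term, as the ratio of mean RPKM, and without each library.

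The members, lists and tests were chosen with earlier results of these data known. Of the members, those named with values in every library by rule were the 3 highest and 2 lowest differences of each class between the numbers, GARS and KARS, any with an unadjusted p under 0.05 for the mimic, and those under the filter. Values of the other called members, FARSA, IARS2 and the members with a miR-217 match were added after they were seen. The exact permutation test compared 2 libraries with 2. Positions of 100% of the members overlapped GENCODE 29. Promoters and miR-217 are RefSeq sequences.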

Additional observations from a re-analysis of the deposited data

Results flagged for a closer look

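The median difference between miR-217 mimic and mimic NC over the 20 cytosolic members had opposite signs within the replicate numbers, 0.059 within number 1 and -0.041 within number 2 on the log2(RPKM + 1) scale. The median difference between numbers 2 and 1 over the 14 mitochondrial members tested also had opposite signs in the transfections, -0.069 with mimic NC and 0.007 with miR-217 mimic. Each value rests on 1 library against 1, and the difference between them was not tested.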

How the results depend on the processing

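Without a filter on low values 0 cytosolic members were called higher and 0 lower between the replicate numbers, in place of 12 and 1. Leaving out each library in turn gave 0 to 13 cytosolic members called higher and 0 to 1 called lower, and 0 to 3 mitochondrial members called lower. The 0 values came without mimic NC replicate 1 and without miR-217 mimic replicate 1. The number of mitochondrial members called lower was 2 with a minimum mean RPKM of 5, 1 with median centring, 3 with limma voom on recovered reads and 1 without the treatment term. With median centring the calls over all genes went from 512 higher and 651 lower to 780 and 749, and limma voom gave 1402 and 1878. Without a filter they were 1 and 2, without mimic NC replicate 1 they were 4 and 5, without miR-217 mimic replicate 1 they were 6 and 7, and without either library numbered 2 they were 1537 and 2394 (mimic NC) and 807 and 954 (miR-217 mimic). The mitochondrial median between the numbers was 0.050 with a minimum mean RPKM of 5 (9 genes), and -0.126 to 0.026 with 1 library left out. The 13 calls of the reported fit were kept with a pseudocount of 0.1, a minimum mean RPKM of 5, median centring, limma voom and no treatment term.

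For miR-217 mimic against mimic NC, 0 members were called, and 0 had an unadjusted p under 0.05, under every alternative run, limma voom and the replicate block included. The cytosolic median went from -0.336 to 0.336 with 1 library left out, which leaves the numbers unequal between the groups. The mitochondrial median was 0.052 with a pseudocount of 0.1, -0.013 with a minimum mean RPKM of 5, 0.071 with median centring, 0.062 with limma voom, 0.056 with limma voom and the replicate block (an alternative added once the data had been seen), 0.056 for the ratio of mean RPKM, and 0.044 to 0.126 with 1 library left out. With the replicate block the medians were 0.003 and 0.045 as without it, and genes at an unadjusted p under 0.05 rose from 165 to 1046 over all genes while 0 were called. Limma voom gave 82 such genes, or 1261 and 1 called gene with the block. Libraries with the same number deviated together from the means of their groups (correlation 0.68), but the labels do not state a pairing. This value is necessarily the same for both numbers when a group holds 2 libraries, and so it is 1 observation. The cause of these changes was not tested. With 2 libraries a group, small differences in low genes such as MARS2 and PARS2 could not be measured.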
